A study of Mus musculus with 23 samples.

Results

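Tumours carrying a mutant histone H3.3, loss of Trp53, an Atrx hairpin and added Pdgfra (K27M-APP T) were compared with preneoplastic cells of the same genotype (K27M-APP). All libraries of these groups entered, 4 tumour libraries (T1, T2, T3 and T4) and 2 preneoplastic libraries (1 and 2), 6 of the 23 in the series. Both groups are C57BL/6 mouse brain material and by label overexpress H3.3K27M and Pdgfra, are Trp53-/- and carry an Atrx shRNA. The genes were delivered to neural progenitors of the embryonic cortex by in utero electroporation with a piggyBac transposon, which passes them to all progeny of a transfected cell. Cells were recovered by GFP and expanded, 72 h after delivery for the preneoplastic cells and at 5 to 9 months for the tumours, although the extraction protocol names tumours as well as cell pellets. Since no animal is named for any library, p-values measure only the spread between these samples, which may be technical. Time, growth in the animal and the state of the tissue differ together between the groups and cannot be told apart. The age within the 5 to 9 months is not given per tumour.

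H3.3K27M is a lysine-to-methionine change in a histone variant that inhibits the EZH2 methyltransferase, so that the repressive mark H3K27me3 is lost over much of the genome; it marks diffuse midline gliomas. PDGFRA is a receptor tyrosine kinase of oligodendrocyte precursors that drives growth through MAPK signalling, and ATRX deposits H3.3 at heterochromatin. Interferon-stimulated genes are switched on when a complex that includes STAT2 and IRF9 binds a short repeated promoter element, the interferon-stimulated response element (ISRE), and they include the genes that present peptides on MHC class I.

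No gene passed the threshold in this comparison. At an adjusted p below 0.05, edgeR's quasi-likelihood test called 0 of 20373 genes (0% in each direction), with a smallest adjusted p of 0.97, for Ifi27 and Samd9l. At an unadjusted p below 0.05 it found 549 genes higher in tumours (2.69%) and 129 lower (0.633%). DESeq2 called 61 genes higher (0.308% of the 19834 with an adjusted p) and 1 lower (0.00504%), and limma voom with sample weights called 32 higher (0.157%) and 1 lower (0.00491%), with 25 called by both; the cause of the difference between the tools was not tested. The lower gene was the same for both tools, the predicted gene 2410018L13Rik, at 1.16 and 0.802 CPM (counts scaled to the effective library size) in the preneoplastic libraries and at 0 to 0.0987 in the tumours. Some genes that DESeq2 alone called higher rested on T3. Among them, 1700024J04Rik and Gm10439 stood at 14.6 and 8.82 CPM in T3 and at 0 in the other libraries. S100a14, also called by DESeq2 alone, stood at 0.0528 to 0.174 CPM in the tumours. DESeq2 was not run without T3. Ranges that did not overlap between the 4 tumours and the 2 preneoplastic libraries were found for 1979 genes placed higher in tumours (9.71%) and 1548 placed lower (7.6%); without T3 these shares were 15.7% and 12.9%. The values below therefore describe these libraries, and edgeR's adjusted p was 0.97 to 1 for each gene named.

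The 6 libraries held 37300947 to 68642582 counts. The preneoplastic pair was close (Pearson r of log2 CPM across genes 0.99), and the tumour pairs ranged from 0.916 to 0.969. T3 stood apart: its r was 0.916 to 0.933 with the other tumours and 0.924 and 0.926 with the preneoplastic libraries. On the first principal component, which held 47.7% of the variance, T3 lay at 138 and the other libraries between -46.4 and 18.4. T3 and T4 were deposited only in the later table of counts, where no other K27M-APP library is new, so within the earlier table T1 and T2 face the same 2 preneoplastic libraries. Y-linked genes were counted in both preneoplastic libraries, T1 and T2 and were near 0 in T3 and T4, and the part of this in other results was not tested. Xist, the X-inactivation RNA, stood at 67.7 and 144 CPM in the preneoplastic libraries, at 0, 0.131 and 0.211 in T1, T2 and T3, and at 297 in T4. Results that rest on T3 are given without it.

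The delivered and targeted genes came first. Pdgfra (ENSMUSG00000029231, GRCm38 chr5:75152292-75198215, plus strand) stood at 797 and 871 CPM in the preneoplastic libraries and at 875, 824, 1901 and 1262 in T1 to T4. The ranges overlapped at T2, and the log2 fold change was 0.54 ± 0.55 (SE). Trp53 transcripts, which can persist after a coding lesion, stood at 18.8 and 18.7 CPM against 25.3, 24.6, 19.4 and 15.6. Atrx stood at 78.8 and 89.2 CPM against 81.8, 62.4, 54.9 and 107, with T4 above both preneoplastic libraries. Of the H3.3 genes, H3f3a overlapped between groups (278 and 246 CPM against 227, 181, 245 and 260). H3f3b did not overlap, at 502 and 512 CPM in preneoplastic cells and 599, 587, 717 and 680 in tumours (log2 fold change 0.35 ± 0.30, SE). Counts do not separate a delivered copy from the endogenous gene.

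The interferon-stimulated genes were placed higher in the tumours, though no single member passed edgeR's test. All 25 members had a positive log2 fold change, against 55.3% of all genes tested, and their median was 2.04, against 0.05 over all genes. In 22 of the 25 the tumour libraries lay above both preneoplastic libraries without overlap (9.71% of all genes did), and 16 had an unadjusted p below 0.05. None passed edgeR's adjusted threshold; DESeq2 called 5 of them (Gbp2, Rsad2, Isg15, Ifit1 and Lgals9) and voom 2 (Gbp2 and Rsad2). The summed level of the list was 219 and 199.9 CPM in the preneoplastic libraries and 777, 1414, 429 and 641 in T1 to T4. T2 held the highest sum and T3 the lowest of the tumours.

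The 4 members with the smallest p-values are shown with the 250 bases before their start site, because each holds the element through which such genes are known to be driven. The sequences are from RefSeq on GRCm38.p6, read 5′ to 3′ on the gene's strand, and capitals mark each match to the ISRE core GAAANNGAAA or its reverse complement TTTCNNTTTC.
Gbp2: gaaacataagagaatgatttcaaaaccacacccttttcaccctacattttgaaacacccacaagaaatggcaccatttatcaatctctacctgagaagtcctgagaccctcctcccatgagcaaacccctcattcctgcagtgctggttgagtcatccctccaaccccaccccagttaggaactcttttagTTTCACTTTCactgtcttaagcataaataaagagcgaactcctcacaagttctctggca
Rsad2: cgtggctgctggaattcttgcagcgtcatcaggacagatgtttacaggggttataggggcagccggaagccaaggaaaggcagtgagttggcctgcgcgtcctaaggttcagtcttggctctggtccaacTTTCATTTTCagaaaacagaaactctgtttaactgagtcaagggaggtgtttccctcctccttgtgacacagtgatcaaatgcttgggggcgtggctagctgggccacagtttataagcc
Isg15: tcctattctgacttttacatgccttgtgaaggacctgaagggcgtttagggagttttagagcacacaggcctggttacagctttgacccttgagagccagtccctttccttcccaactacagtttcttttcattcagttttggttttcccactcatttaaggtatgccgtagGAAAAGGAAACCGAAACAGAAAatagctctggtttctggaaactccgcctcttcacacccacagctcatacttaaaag
Ifit1: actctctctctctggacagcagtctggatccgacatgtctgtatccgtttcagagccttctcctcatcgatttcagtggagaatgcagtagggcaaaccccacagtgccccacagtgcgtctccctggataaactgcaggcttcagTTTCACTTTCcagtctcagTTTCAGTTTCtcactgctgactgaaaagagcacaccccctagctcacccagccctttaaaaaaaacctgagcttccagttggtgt
The windows are chr3:142620413-142620662 (plus strand) for Gbp2, chr12:26456453-26456702 (minus strand) for Rsad2, chr4:156200819-156201068 (minus strand) for Isg15 and chr19:34640639-34640888 (plus strand) for Ifit1. The match begins 59 bases before the start site in Gbp2 and 120 bases before it in Rsad2. Isg15 holds 3 overlapping matches, beginning 78, 72 and 66 bases before the start, and Ifit1 holds 2, at 104 and 85 bases. Promoter entries were found for 18 of the 25 members, of which 10 held the core (55.6%), against 936 of 27025 genes in the whole RefSeq table (3.46%). The list was assembled from known interferon targets, so this share describes the list and is no result of the comparison. A match is a run of letters, not a shown binding site.

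Gbp2, a guanylate-binding protein of cell-autonomous defence, stood at 2.34 and 1.4 CPM in the preneoplastic libraries and at 7.7, 25.1, 7.76 and 9.76 in T1 to T4, with a log2 fold change of 2.75 ± 0.71 (SE). Rsad2, which encodes the antiviral enzyme viperin, stood at 12 and 13 CPM against 86.9, 129, 40.3 and 46.4 (2.59 ± 0.70). Isg15, a ubiquitin-like modifier, stood at 3.69 and 2.12 CPM against 21.4, 44.3, 17.2 and 9.98 (3.00 ± 0.81). Every tumour lay above both preneoplastic libraries for these 3 genes, and T2 was the highest for each. Ifit1, a sensor of foreign RNA, stood at 5.13 and 3.29 CPM against 25.3, 89.4, 10.1 and 26.7 (3.17 ± 0.89), with T3 the lowest tumour. Lgals9, a galectin, stood at 1.26 and 0.922 CPM against 9.08, 17, 11.1 and 17.5 (3.64 ± 1.06).

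The signalling components lay in the same direction. Stat2, a subunit of the factor that binds the ISRE, stood at 17.2 and 18.1 CPM against 30.8, 48.2, 30.8 and 28 (0.97 ± 0.33). Irf9 stood at 19.6 and 15.2 CPM against 42.2, 76.3, 46.4 and 39.9 (1.56 ± 0.63). No tumour overlapped the preneoplastic range for these factors. Ddx58, which encodes the RNA sensor RIG-I, stood at 18.5 and 19.8 CPM against 57.2, 102, 41.3 and 53 (1.73 ± 0.55), and Usp18, a brake on interferon receptor signalling, at 9.11 and 6.94 CPM against 48.1, 93.4, 21 and 32.1 (2.60 ± 0.97).

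The 3 members that overlapped did so through T3. Gbp3 stood at 20 and 20.3 CPM against 92.5, 113, 14.3 and 35.6, Bst2, which tethers budding virus, at 11.4 and 9.96 CPM against 50.4, 41.7, 10.9 and 17.5, and Ifit2 at 10 and 11.9 CPM against 30.8, 42.8, 4.91 and 39.9. Without T3 all 25 members lay above without overlap (15.7% of all genes did) and the list median was 2.3. Within the earlier table, where T1 and T2 face libraries 1 and 2, all 25 did (23.1% of all genes), with a median of 2.51. Members of the Ifit, Oas, Mx and Gbp families resemble each other in sequence, so reads may have been split among copies.

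**Figure D1:**
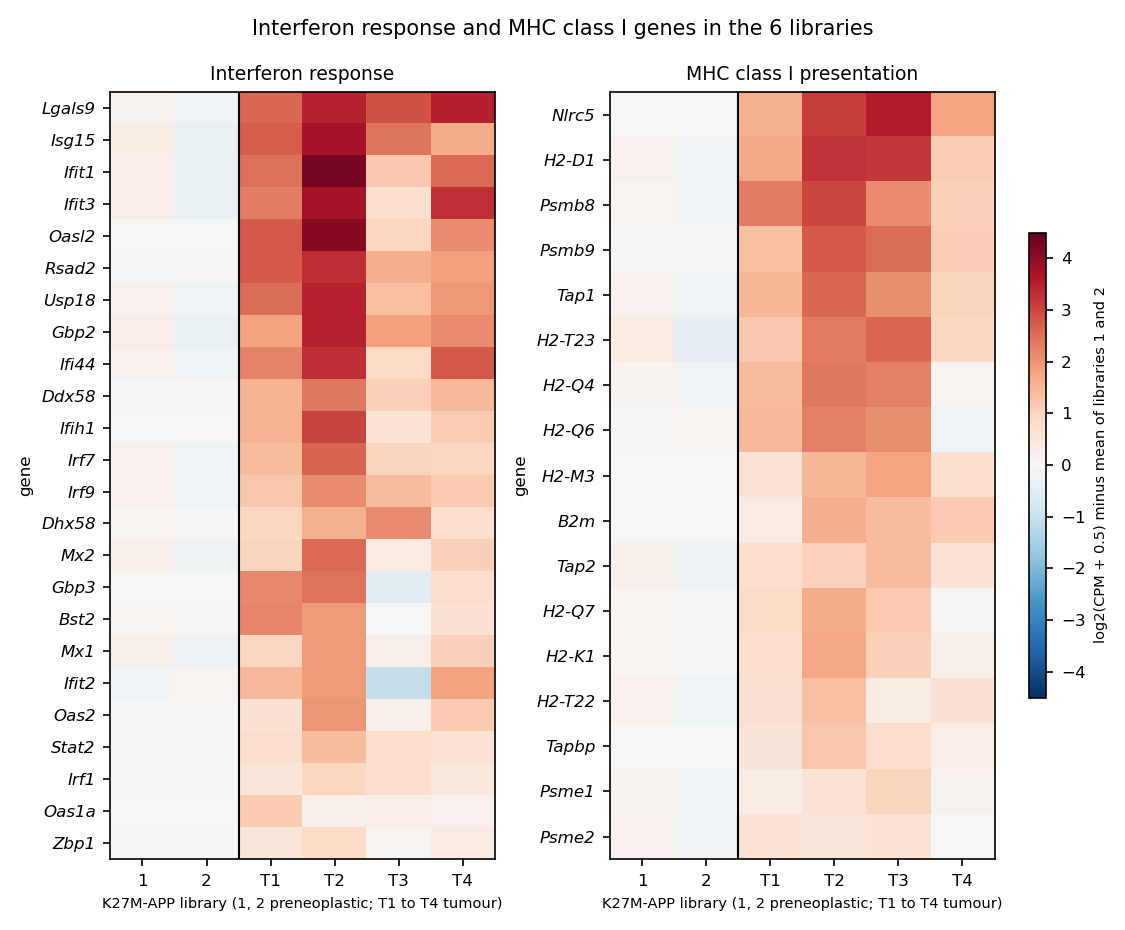
Heat map of log2(CPM + 0.5) minus the mean of libraries 1 and 2, for 24 of the 25 interferon response genes (left) and the 17 MHC class I genes (right), in the 6 K27M-APP libraries; red is higher and blue lower, and genes are ordered by their mean over the tumours. Columns T1 to T4 are red for nearly all genes; the interferon genes are palest in T3, and the MHC class I genes are palest in T4 and T1.

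The class I antigen presentation genes lay higher as well, in another order of tumours. All 17 had a positive log2 fold change with a median of 1.83, 12 lay higher without overlap (9.71% of all genes did), and 10 had an unadjusted p below 0.05 (2.69% of all genes were higher at that p); edgeR called none, DESeq2 called H2-D1 and Nlrc5, and voom called Nlrc5. The summed level was 313 and 277 CPM in the preneoplastic libraries and 518, 1088, 909.6 and 501 in T1 to T4. T3, the lowest tumour in the interferon sum, was the second highest here. The list median was 1.61 without T3 and 1.80 within the earlier table.

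Nlrc5, the transcriptional activator of class I genes, stood at 1.08 and 1.02 CPM in the preneoplastic libraries and at 4.17, 13, 17.5 and 4.83 in T1 to T4 (3.23 ± 0.93). H2-D1, a heavy chain, stood at 30 and 22.8 CPM against 85.4, 251, 239 and 58.6 (2.59 ± 0.68), and B2m, the shared light chain, at 92.4 and 94.2 CPM against 122, 291, 243 and 213 (1.22 ± 0.43). T2 and T3 were the 2 highest tumours for each of these 3 genes. H2-K1 stood at 59.3 and 53.1 CPM against 91.9, 188, 118 and 66.2 (1.05 ± 0.48), a smaller difference than for H2-D1. The peptide transporter gene Tap1 stood at 7.76 and 5.93 CPM against 20.2, 42.7, 30.5 and 14.3 (1.98 ± 0.64), and Psmb9, an immunoproteasome subunit, at 1.03 and 1.1 CPM against 3.53, 10, 8.5 and 2.85 (2.55 ± 0.79). Tap1 and Psmb9 overlap on opposite strands and the strand setting is not given in the sources used here, so their reads cannot be told apart, and the H2 genes are near-identical copies whose split is uncertain.

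Levels in bulk samples do not separate more cells of a type from more RNA per cell, so markers of immune cells were read beside these lists. The summed level of 18 microglia and macrophage markers was 35.4 and 32.3 CPM in the preneoplastic libraries and 35, 42.2, 34.4 and 41.5 in T1 to T4. The defining markers C1qa, C1qc and Tyrobp had 0 counts in all 6 libraries, and Ptprc, the pan-leukocyte marker, stood at 0 to 0.185 CPM. None of the 6 markers that could be tested lay apart between groups. Lymphocyte markers summed to 0.718 to 0.987 CPM in all libraries and red blood cell markers to 0.273 to 0.839. Endothelial markers summed to 14.1 and 14.2 CPM against 26, 18.2, 30.6 and 24.8, with Kdr at 4.82 and 7.28 CPM against 17, 10.3, 5.02 and 8.78; of the 10 tested, 8 had a positive log2 fold change (median 0.94, and 0.27 within the earlier table), 2 lay higher without overlap (9.71% of all genes did) and 0 lower. Cdh5 and Cldn5, 2 markers that define that cell type and were too low to be tested, stood at 0 to 0.185 and 0 to 0.205 CPM.

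Beyond the listed families, 12 genes were named in each direction by a rule on level, overlap and p-value, and none passed edgeR's test. Ifi27 (ENSMUSG00000064215, chr12:103434211-103440239, plus strand), an interferon-inducible mitochondrial protein, stood at 24.6 and 27.7 CPM in the preneoplastic libraries and at 307, 499, 271 and 223 in the tumours. Its log2 fold change was 3.64 ± 0.61 (SE), with an adjusted p of 0.97 by edgeR, 1.11e-07 by DESeq2 and 0.00615 by voom. Samd9l (chr6:3372257-3399572, minus strand), an interferon-inducible growth restrictor, stood at 7.6 and 7.64 CPM against 45.5, 75.9, 45.6 and 44.4 (2.79 ± 0.49); T1, T3 and T4 were close together and T2 higher. Lgals3bp, a secreted glycoprotein that binds galectins, stood at 1.61 and 2.45 CPM against 33.5, 36.4, 14.3 and 25.9 (3.76 ± 0.78). Cxcl10, the interferon-inducible chemokine, stood at 7.35 and 7.42 CPM against 20.4, 36.3, 59.5 and 22.4 (2.23 ± 0.51), with T3 highest. Of the 12 higher genes, Gbp2, Rsad2, Isg15 and H2-D1 belong to the lists above.

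The other higher genes were Gprin1, Serpini1, Brinp3 and Zfp503. Gprin1, a regulator of neurite outgrowth, stood at 16.1 and 16.7 CPM against 37, 36.2, 39.1 and 33.6 (1.16 ± 0.23), with little spread in either group. Serpini1, the neuronal protease inhibitor neuroserpin, stood at 13.5 and 13.1 CPM against 24.4, 38.9, 26.2 and 34.4 (1.22 ± 0.27), and Brinp3, a neural protein, at 30 and 41.8 CPM against 84.9, 105, 75.4 and 128 (1.45 ± 0.34). Zfp503, a zinc-finger repressor of striatal development, stood at 0.94 and 1.66 CPM against 9.99, 8.68, 26.1 and 11.1 (3.42 ± 0.73). DESeq2 and voom both called these 4 genes. Both also called these 12 other genes: Aim1, Ahnak2, Apol9a, Card6, Cpeb1, Cpne5, Gm26658, Lgi1, Ppp4r4, Ptprn, Slfn8 and Syt4. Values are given for 3 of them, chosen after they were seen: Syt4, a synaptotagmin of vesicle release, at 0.786 and 0.561 CPM against 3.7, 2.38, 11.6 and 5.55, Ptprn, a dense-core vesicle protein, at 1.42 and 1.74 CPM against 8.14, 7.14, 16.3 and 16, and Lgi1, a secreted synaptic protein, at 0.137 and 0.321 CPM against 1.43, 2.09, 1.53 and 1.29. Gm26658 overlaps Syt4 on the opposite strand, and with no strand setting given their reads cannot be told apart where they overlap.

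**Figure D2:**
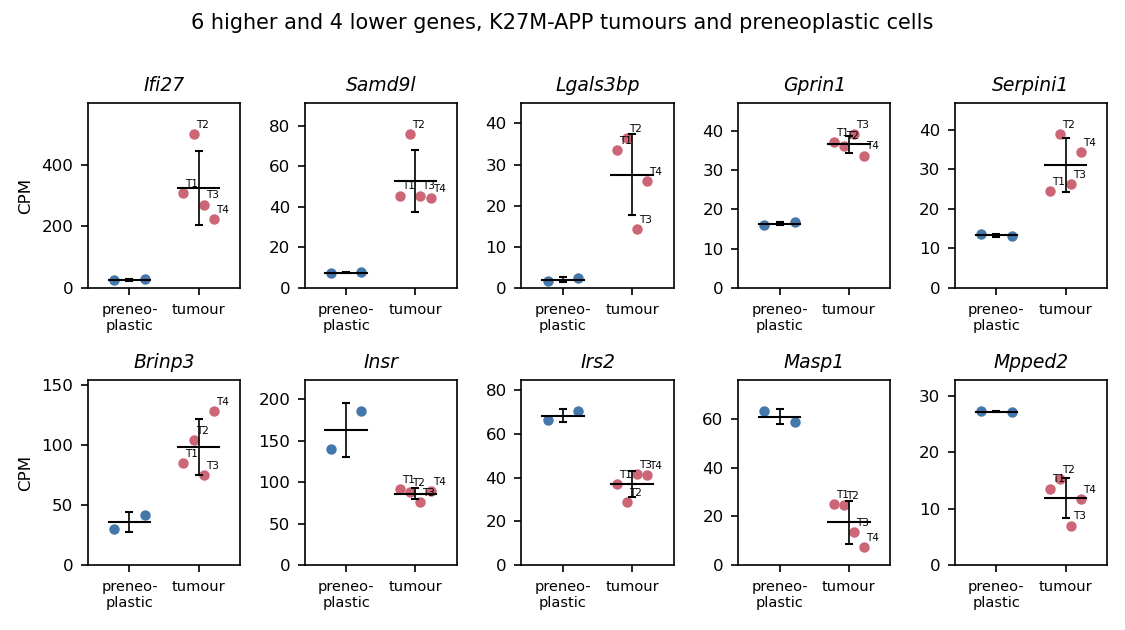
CPM of 6 of the 12 higher and 4 of the 12 lower genes that the rule named, in the 2 preneoplastic (blue) and 4 tumour (red, labelled T1 to T4) libraries; each point is 1 library, and bars are mean and SD. For every gene shown the groups do not overlap, Ifi27 at 24.6 and 27.7 against 223 to 499 and Insr at 139 and 186 against 76 to 91.2.

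The lower genes included the insulin receptor and its docking protein. Insr (chr8:3122061-3279617, minus strand) stood at 139 and 186 CPM in the preneoplastic libraries and at 91.2, 87.8, 76 and 89.5 in T1 to T4, a log2 fold change of -0.92 ± 0.28 (SE). Irs2, which relays the signal of the insulin and IGF receptors, stood at 66.2 and 70.3 CPM against 37.1, 28.6, 41.7 and 41 (-0.88 ± 0.28). The groups did not overlap for either gene, although libraries 1 and 2 differed for Insr about as much as the groups did at their nearest, whereas the related Igf1r and Irs1 overlapped between groups. Masp1, a complement lectin-pathway protease, stood at 63.4 and 58.9 CPM against 24.9, 24.7, 13.4 and 7.25 (-1.80 ± 0.59), and Mpped2, a metallophosphodiesterase of developing brain, at 27.2 and 27.1 CPM against 13.5, 15.2, 6.97 and 11.7 (-1.19 ± 0.37). Eif2ak4, the amino acid sensor GCN2, stood at 45.5 and 44.3 CPM against 33.4, 29.5, 16.8 and 23.7 (-0.80 ± 0.25). Sipa1l2, Fut11, Efs, Mapk6, Zdhhc21 and Lynx1 had log2 fold changes from -0.50 to -1.57, and DESeq2 and voom called none of the 12.

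Of the 25 genes of the IGF, insulin and oncofetal list, 24 could be tested; 2 lay higher and 6 lower without overlap, against 9.71% and 7.6% of all genes. The median log2 fold change was -0.01, and -0.14 to 0.14 on leaving out 1 library at a time. The 6 were Insr, Irs2, Grb10, Igf2bp1, Igf2bp2 and Hmga2. Grb10, an imprinted adaptor that restrains insulin and IGF signalling, stood at 288 and 275 CPM in the preneoplastic libraries and at 161, 95.2, 16.1 and 1.46 in T1 to T4 (log2 fold change -2.04 ± 1.15, SE). Igf2bp1, a fetal RNA-binding protein, stood at 29.8 and 37.3 CPM against 12.9, 0.116, 0 and 0, so that only T1 kept more than a trace. Its paralogue Igf2bp2 stood at 72 and 72.1 CPM against 41.5, 55.9, 8.58 and 41.7, and Hmga2, a fetal chromatin protein, at 11.4 and 10.4 CPM against 3.8, 2.47, 8.92 and 5.33. The most abundant member in CPM, Igfbp3, a carrier of IGFs, overlapped (693 and 901 CPM against 984, 424, 365 and 1280). The spread among tumours was wide beside that of the preneoplastic pair for Grb10 and Igf2bp1.

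Feedback and response genes of MAPK signalling, the pathway below PDGFRA, leaned lower in the tumours. Of 18 members 14 had a negative log2 fold change (44.7% of all genes did), 3 lay lower without overlap (7.6% of all genes did) and none had an unadjusted p below 0.05. The median was -0.28, and it was -0.15 without T2, -0.43 without T3 and -0.50 without T4. Spry4, a Sprouty inhibitor of receptor signalling, stood at 254 and 283 CPM in the preneoplastic libraries and at 147, 32.5, 142 and 179 in T1 to T4. Spry1 stood at 208 and 236 CPM against 142, 58.5, 173 and 156, and the growth regulator Myc at 103 and 99 CPM against 77.3, 20.4, 57.2 and 98. T2 was the lowest tumour for these 3 genes and for Ccnd1, the cyclin D1 gene (2058 and 2273 CPM against 2183, 884, 1102 and 1743). Per tumour the list median was -0.21, -1.11, -0.51 and 0.09 on the log2 scale in T1 to T4, so T4 did not share the direction. Of the 6 PDGF ligands and receptors 0 lay higher and 1, Pdgfd, lay lower without overlap (9.71% and 7.6% of all genes). Their median log2 fold change was 0.29, 0.03 without T3 and -0.09 within the earlier table. Pdgfd stood at 1.61 and 1.38 CPM against 0.74, 0.464, 1.32 and 0.957. Pdgfa stood at 5.31 and 5.83 CPM against 8.32, 5.56, 3.88 and 19.9, highest in T4, and Pdgfc at 15.9 and 17.7 CPM against 10.3, 12.1, 45.4 and 13.4, highest in T3.

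Proliferation genes had a median near 0. The 25 genes of S phase and mitosis had a median log2 fold change of -0.05, and -0.19 without T3. Of the 25, 18 had a negative log2 fold change (44.7% of all genes did). Without overlap 0 lay higher and 3 lower (9.71% and 7.6% of all genes). Without T3 these counts were 0 and 7 (15.7% and 12.9% of all genes). The sum of the 25 was 6185 and 6474 CPM against 5880.1, 6577, 6396 and 4621. Top2a, a mitotic topoisomerase, stood at 1211 and 1150 CPM against 1179, 1406, 1482 and 869. Among 28 p53 targets the median was -0.03, and 0.06 without T3; Plk2 stood at 307 and 298 CPM against 173, 79.4, 164 and 234, and Cdkn1a, the p21 gene, at 5.31 and 4.49 CPM against 3.01, 1.25, 16.6 and 20.3, above the preneoplastic range in T3 and T4 and below it in T1 and T2. Cdk6, a partner of D cyclins, stood at 10.7 and 12.6 CPM against 32.9, 30.1, 11.1 and 33.8, with T3 alone inside the preneoplastic range. The median of the 31 polycomb and H3.3 chaperone genes was 0.14, and it turned to -0.02 without T3 and to -0.08 within the earlier table.

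**Figure D3:**
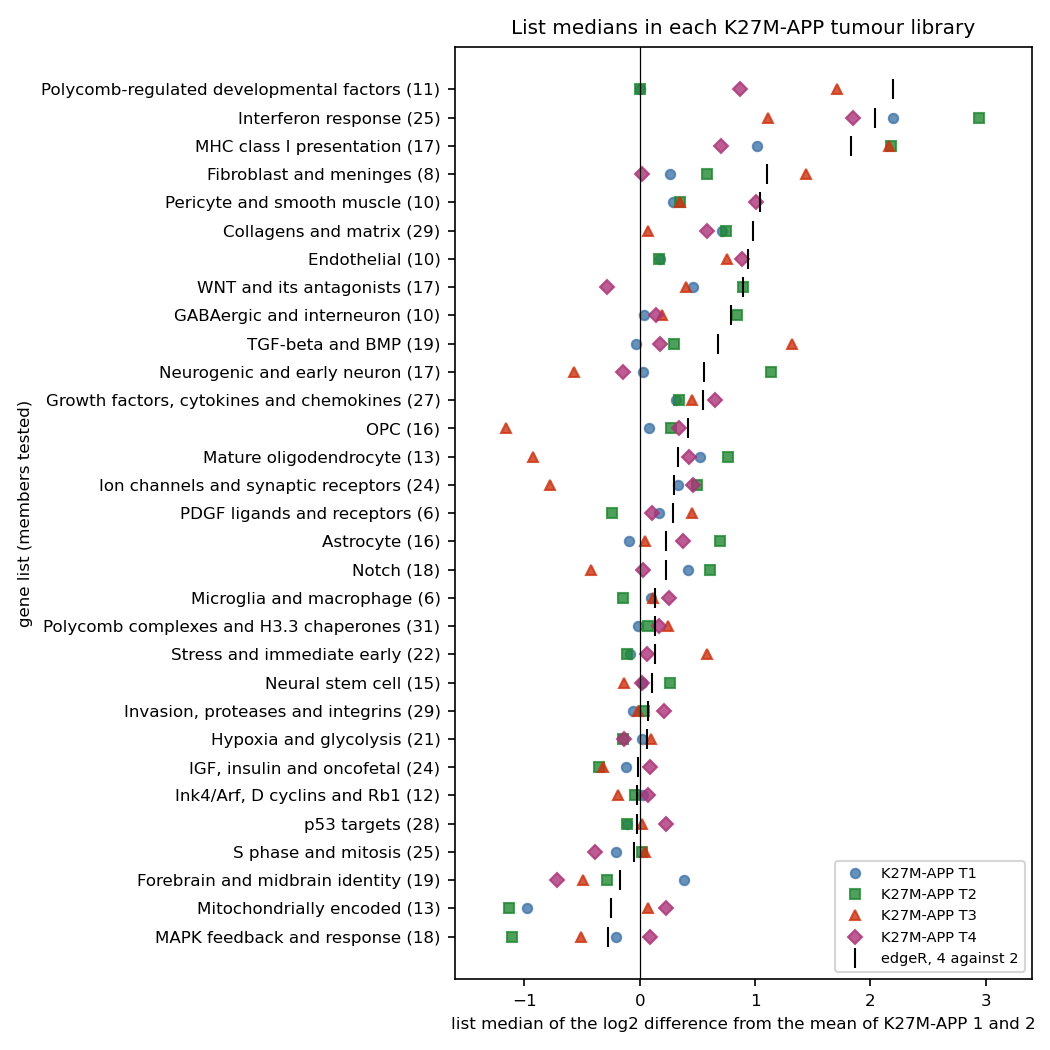
Median log2 difference of each of 31 gene lists (members tested in brackets; Hox genes, sex-linked genes and lists with under 5 tested members left out) in T1 to T4 against the mean of preneoplastic libraries 1 and 2, with black ticks for the edgeR median. Interferon response and MHC class I stand to the right of 0 in all 4 tumours, and T3 lies left of the other tumours for OPC and mature oligodendrocyte genes.

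Matrix genes leaned higher. Of 29 collagen and matrix genes tested, 25 had a positive log2 fold change (55.3% of all genes did), with a median of 0.99 that was 0.65 without T1. Without overlap 7 lay higher and 0 lower (9.71% and 7.6% of all genes), and 6 were higher at an unadjusted p below 0.05 (2.69% of all genes). Col11a1, a fibrillar collagen, stood at 67.6 and 98.2 CPM in the preneoplastic libraries and at 158, 161, 238 and 125 in T1 to T4 (1.04 ± 0.41). Col4a1, of basement membranes, stood at 25.1 and 28 CPM against 75, 114, 22.7 and 57.8, overlapping through T3, and Spp1, the secreted ligand osteopontin, at 57.4 and 64.1 CPM against 120, 80.2, 170 and 162. The collagen VI genes were high in T3 alone: Col6a1 stood at 0.342 and 0.2 CPM against 0.74, 2.38, 89.8 and 2.92, and Col6a2 at 0.171 and 0.321 CPM against 0.395, 1.31, 27.2 and 0.957. Tnc, the most abundant member in CPM, overlapped (2383 and 3803 CPM against 3572, 2739, 2326 and 3053). Itga7, a laminin receptor subunit, stood at 16.1 and 13.9 CPM against 52.4, 34.7, 114 and 43.3 (2.03 ± 0.74), and Met, the HGF receptor, at 0.291 and 0.521 CPM against 2.57, 4.63, 4.75 and 1.82 (3.08 ± 1.01). Fibroblast and meningeal markers were also high in T3, with sums of 17.9 and 22.3 CPM against 27.1, 40.4, 213 and 17, of which Foxc1 made 204 CPM in T3. Of the 8 tested, 7 had a positive log2 fold change (55.3% of all genes did), with a median of 1.10, and 0.90 without T3. Without overlap 1 lay higher and 0 lower (9.71% and 7.6% of all genes). Lum and Dcn, which define fibroblasts, were at or under 0.211 CPM in all libraries. Whether those markers bear on the collagen levels was not tested.

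Rnf43, which removes WNT receptors from the cell surface, stood at 0.564 and 0.361 CPM against 6.54, 12.4, 11 and 6.94 (4.31 ± 1.24; adjusted p by DESeq2 0.00541). It lay apart from the preneoplastic range in every tumour. Of the 17 WNT genes tested 13 had a positive log2 fold change (55.3% of all genes did), and 3 lay higher and 1 lower without overlap (9.71% and 7.6% of all genes). The most abundant member in CPM, Wnt5a, had a negative log2 fold change (-0.90 ± 0.63). It overlapped between groups, at 89.2 and 102 CPM against 96.7, 55.8, 14.2 and 37.7.

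Markers of neural cell types differed mostly among the tumours. The labels name the preneoplastic material neural progenitor cells and the tumours tumour cells, and stem cell and oligodendrocyte precursor (OPC) genes were counted in all 6 libraries. Olig1 stood at 759 and 840 CPM in the preneoplastic libraries and at 1103, 739, 468 and 939 in T1 to T4. Sox10, a driver of the oligodendrocyte lineage, stood at 4.77 and 5.39 CPM against 13.3, 17, 0.0792 and 1.12, and Gpr17, a marker of committed precursors, at 9.43 and 12.8 CPM against 13.3, 30.6, 0.0528 and 30.1. The per-tumour median of the 16 OPC genes tested was 0.08, 0.27, -1.16 and 0.34 on the log2 scale, and that of the 13 mature oligodendrocyte genes was 0.52, 0.77, -0.92 and 0.43. T3 was alone below the preneoplastic level in both lists. Cspg4, the NG2 proteoglycan, stood at 40.5 and 65 CPM against 55.6, 32.8, 74.3 and 261, with T4 highest.

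Astrocyte and neuronal genes gave no common direction. Of 16 astrocyte genes tested 9 had a positive log2 fold change, of 17 neurogenic and early neuron genes 9, and of 10 GABAergic genes 6. The share over all genes was 55.3%. Without overlap 2, 2 and 1 lay higher in these lists and 0 lower in each (9.71% and 7.6% of all genes). The astrocyte list median was 0.23 (0.13 without T3), and the neurogenic and early neuron median was 0.56, 0.06 without T3 and -0.15 without T2. Gfap, an astrocyte filament, stood at 0.752 and 0.722 CPM against 1.18, 20.7, 14.8 and 2.18, and S100b at 1.98 and 1.52 CPM against 3.33, 16.2, 10.7 and 11.2; both lay above the preneoplastic pair in all tumours. Slc1a3, a glutamate transporter, overlapped (863 and 820 CPM against 695, 1763, 1376 and 981). Tubb3, a neuronal tubulin, stood at 10.6 and 6.76 CPM against 19, 43.5, 12.1 and 53.7, and Gad1, an enzyme of GABA synthesis, at 0.53 and 0.902 CPM against 4.42, 6.57, 3.56 and 11.7, also above in all tumours. Map2 stood at 795 and 870 CPM against 848, 812, 206 and 889, low in T3 alone.

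Regional and polycomb-regulated transcription factors varied in level from tumour to tumour. Of 24 listed forebrain and midbrain identity genes, 19 could be tested. Among these, 3 lay higher and 6 lower without overlap (9.71% and 7.6% of all genes). At an unadjusted p below 0.05 by edgeR, 4 were higher and 2 lower (2.69% and 0.633% of all genes). Some members were near 0 in the preneoplastic libraries and passed the filter on low counts mainly through libraries where they are high. Irx2, for example, stood at 0.0342 and 0 CPM against 0.148, 0.493, 7.23 and 2.54. The counts of higher members are therefore no support for a difference. Zic1, a factor of dorsal neural tissue, stood at 34.1 and 44 CPM in the preneoplastic libraries and at 7.4, 0.029, 0.0528 and 3.59 in T1 to T4, apart in every tumour (log2 fold change -3.82 ± 1.4, SE). Meis2, a homeobox factor of the forebrain, stood at 134 and 127 CPM against 101, 105, 57.6 and 68.6 (-0.65 ± 0.30). Several of these factors were highest in T3. Foxc1 stood at 11.6 and 16.2 CPM against 14.6, 23.7, 204 and 12.1, Tbx2 at 0.0342 and 0.12 CPM against 0.494, 0.421, 35.7 and 2.32, and En1, a midbrain and hindbrain gene, at 0.103 and 0.0401 CPM against 0.79, 0.0581, 26.2 and 0. Irx1 stood at 0.0684 and 0.0802 CPM against 0.148, 0.29, 25.4 and 1.91. Both Irx1 and Tbx2 lay above the preneoplastic pair in every tumour, though close to it in T1 and T2. All 11 polycomb-regulated factors that could be tested, of 35 listed, had a positive log2 fold change; their median was 2.19, and 0.73 without T3. Since those 11 passed the filter on low counts mainly through the libraries where they are high, the direction is no support for a difference.

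No Hox gene exceeded 1 CPM in the preneoplastic libraries, T1 or T2, while 1 did in T3 and 4 did in T4. Of 27 in the table, 6 could be tested, all of the Hoxa cluster, and the summed level was 0 and 0.12 CPM in the preneoplastic libraries and 0.642, 0.639, 3.59 and 9.69 in T1 to T4. T3 and T4 held most of the signal.

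**Figure D4:**
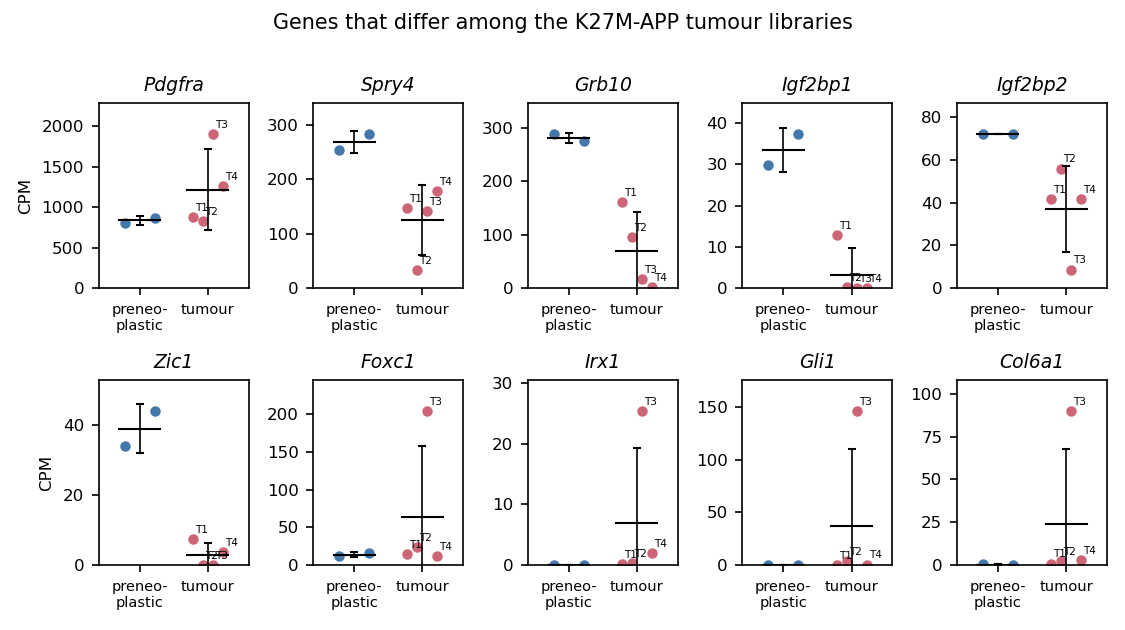
CPM of 10 genes, some of which vary among the tumours, in the 2 preneoplastic (blue) and 4 tumour (red, labelled) libraries, with mean and SD. Grb10 lies between 1.46 and 161 in the tumours while the preneoplastic pair holds 288 and 275, and Foxc1, Irx1, Gli1 and Col6a1 are high in T3 alone.

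The genes with the widest spread among the 4 tumours at 10 CPM or more were Six3os1, Ndn, AI662270, Gli1, Pet2, Nxf3, Xlr3c and Kcnj8. Gli1, the effector of Hedgehog signalling, stood at 0.171 and 0.241 CPM in the preneoplastic libraries and at 0, 3.38, 146 and 0.311 in T1 to T4. Kcnj8, a potassium channel subunit of pericytes, had no counts in the preneoplastic libraries and stood at 0, 0.174, 45.9 and 0.287 CPM in the tumours. The list of pericyte and smooth muscle markers summed to 46.5 and 72 CPM against 67.6, 42.6, 128 and 275, of which Cspg4, also an OPC gene, made the larger share in every library. Of its 10 members 9 had a positive log2 fold change (55.3% of all genes did). Their median was 1.04, 0.46 without T3 and 0.20 without T4. None lay apart between groups, where 9.71% of all genes lay higher and 7.6% lower. The defining markers Rgs5 and Pdgfrb were at or under 0.264 and 1.28 CPM. Ndn, the imprinted necdin gene, stood at 97.9 and 66.5 CPM against 79.7, 113, 0 and 2.39. Six3os1, a transcript antisense to the forebrain gene Six3, stood at 6.49 and 8.54 CPM against 97.4, 0, 0 and 35.5; with no strand setting given, its reads cannot be told apart from those of Six3 where they overlap. Pet2, Nxf3 and Xlr3c lie on the X chromosome, and their highest tumour was T3 (42.4, 93.3 and 34.4 CPM), as it was for AI662270 (86.6 CPM).

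The same step was compared with that in the K27M-AP background, which lacks the added Pdgfra (3 tumour and 4 preneoplastic libraries that share none with the groups above). There edgeR called 5 of 20373 genes higher (0.0245%) and 0 lower: Samd9l, Ifi27, Lgi1, Nol3 and Lgals9. Ifi27 had a log2 fold change of 3.64 in each background, Samd9l 2.79 with and 3.45 without added Pdgfra, Lgi1 2.79 and 3.39, and Lgals9 3.64 and 6.56. The median of the interferon list was 2.04 with and 2.82 without, and that of the MHC class I list 1.83 and 2.23. Across all genes tested the log2 fold changes of the backgrounds had an r of 0.367, a description across genes that are not independent.

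The difference between the backgrounds was tested as an interaction, and edgeR called 0 genes (723 at an unadjusted p below 0.05, 2.18% of genes with a higher and 1.36% with a lower fold change with added Pdgfra; smallest adjusted p 0.913). DESeq2 called 2, S100a14 and Fgf23, both under 1.1 CPM in every K27M-APP library, and voom called 0. Insr, the insulin receptor gene, had a log2 fold change of -0.92 with and 0.21 without, and Irs2 -0.88 and -0.15. The MAPK response list had a median of -0.28 with added Pdgfra and 0.54 without, and the mature oligodendrocyte list 0.34 (0.62 without T3) and -1.99, with 3 of its 13 members at an unadjusted interaction p below 0.05. The K27M-AP preneoplastic libraries varied widely for members of both lists. Their mean and SD were 104 and 103 CPM for Spry4, and 293 and 249 CPM for Cnp, a myelin gene. The part of single K27M-AP libraries in these medians was not tested. Gprin1 stood at 1.16 and 0.15, and Rnf43 at 4.31 and 0.85. None of these differences passed the threshold.

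**Figure D5:**
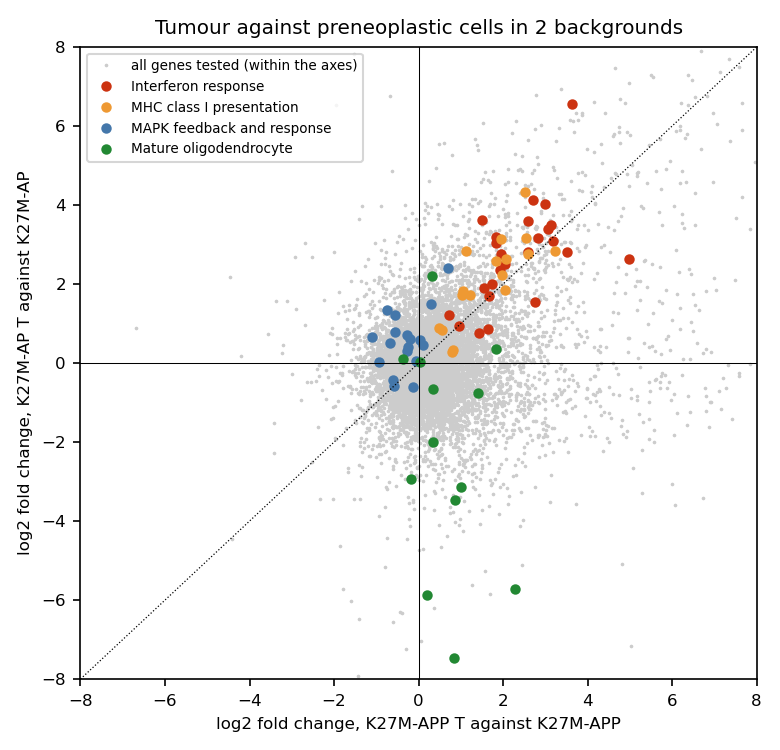
Log2 fold change of tumour against preneoplastic cells with added Pdgfra (horizontal) and without it (vertical) for all genes tested (grey; 47 lie outside the axes), with 4 lists in colour and a dotted line of equality. Interferon and MHC class I genes lie in the upper right quadrant in both backgrounds, with medians of 2.04 and 2.82 and of 1.83 and 2.23.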

How the data were processed

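RNA was measured by paired-end sequencing of rRNA-depleted total RNA, per the labels' protocols. The unit of the values is the raw, unnormalized read count that the authors deposited for each gene, in an earlier and a later table. Listed in the submitters' processing notes, without roles, are mm10, featureCounts 1.4.4, STAR 2.3.0e, GATK, SAMtools 0.1.19, Picard and Trimmomatic 0.32; the annotation, strand setting and treatment of reads with several matches are not given in the sources used here. A column was used where its name equals a sample's title, and 10 columns of the earlier table that match no sample were not used.

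In R 4.3.3, edgeR 4.0.16 fitted its quasi-likelihood test with TMM scaling to 13 libraries (K27M-AP, K27M-APP and their tumours; 9 residual degrees of freedom, coefficient of variation between replicates 0.475). The filter filterByExpr (minimum count 10, minimum total 15) kept 20373 of 39017 genes. P-values were adjusted by Benjamini-Hochberg over all genes tested, with a call below 0.05. CPM (cpm in edgeR) are counts scaled to the TMM-adjusted library size. DESeq2 1.42.0 and limma 3.58.1 (voom with sample weights) were alternatives, as were size factors, no filter, other sets of libraries, a replicate block, a term for the deposited table and leaving out each library. The code was tested on simulated data. Libraries held 37300947 counts or more, and counting error weighs most on genes under 1 CPM; intervals for counting error are not given.

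The comparison, the 36 gene lists and the naming rule were chosen with earlier results of these data known. The rule named Pdgfra, Trp53, Atrx, H3f3a and H3f3b; 12 genes a direction with no overlap and at least 10 CPM, by smallest p where none was called; the member of each list with the highest CPM; and the 8 genes with the widest spread among tumours. Of the genes so named, 5 are not reported here. Other genes were named after their values were seen. Coordinates are from GENCODE M21 on GRCm38, and promoters from RefSeq on GRCm38.p6. Reads may be shared with an overlapping gene for Cxcl10 (Art3), Masp1 (Rtp4), Irf9 (Rnf31), B2m (Patl2), Itga7 (Mettl7b), Zic1 (Zic4), S100b (Dip2a), Col4a1 (Col4a2), Cnp (Dnajc7), Gli1 (Arhgap9) and Xist (Tsix). The same holds for Gpr17 (Lims2), Tubb3 (Gm20388), Ccnd1 (LTO1), Alas2 (Apex2) and Xlr3c (Xlr5a), among others.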

Additional observations from a re-analysis of the deposited data

Results flagged for a closer look

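Among the CPM of the genes named, 21 times 1 of the 4 tumour libraries stood farther from the rest than Dixon's criterion allows. For values with a normal spread, chance alone gives this in about 1 in 20 groups. For several genes the CPM were at or near 0 in the other tumours, so that rate need not hold here. In all, 112 genes were looked at, the genes are not independent, and several were named for their spread. T3 was the library that stood apart 15 times. It was the highest for Zfp503 (26.1 CPM, the others 8.68 to 11.1), Foxc1 (204), Id3 (291), AI662270 (86.6), Gli1 (146), Pet2 (42.4), Kcnj8 (45.9), Pdgfc (45.4), Irx1 (25.4), En1 (26.2), Tbx2 (35.7), Col6a1 (89.8) and Col6a2 (27.2). It was the lowest for Map2 (206 CPM, the others 812 to 889) and Cdk6 (11.1, the others 30.1 to 33.8).

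T2 was the highest for Samd9l (75.9 CPM), Gbp2 (25.1) and Stat2 (48.2), all interferon-inducible. T4 was the lowest for Lynx1 (2.39) and the highest for Xist (297), and T1 the highest for Igf2bp1 (12.9).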

How the results depend on the processing

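The count of 0 called genes held under every edgeR alternative run, with 233 to 1162 genes at an unadjusted p below 0.05; DESeq2 called 62 genes and voom 33. For the interaction, DESeq2 called 2 and the other alternatives 0; for the members of the lists together, DESeq2 called 10, voom 6 and the others 0. Leaving out each library in turn left 0 calls for each (233 to 945 genes at an unadjusted p below 0.05; without K27M-APP 1 it was 250, without K27M-APP 2 it was 233). No pairing by replicate number was seen in the deviations from the group means (r -0.05 between library 1 and T1 and -0.06 between library 2 and T2). With 2 preneoplastic libraries these deviations mirror each other, so such an r cannot decide whether the samples are paired. With the replicate block 0 genes were called in the comparison and in the interaction, with 544 and 1792 at an unadjusted p below 0.05. The medians of the interferon list (1.78 to 2.54) and the MHC class I list (1.48 to 2.10) stayed positive under every alternative run. The earlier table's libraries alone were added as an alternative after the data were seen. With a single preneoplastic library left, it is assumed to vary like the other groups.

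Of 112 named genes, 91 kept the direction of their log2 fold change under every alternative run, and the other 21, none called, turned under at least 1; the cause was not tested. With the replicate block the log2 fold change was 0.030 for Atrx, 0.00861 for Tnc, 0.025 for Igfbp3, 0.036 for Itgb1, 0.010 for Egfr, -0.60 for Six3os1, -0.035 for AI662270, -5.98 for Pet2, -0.48 for Pdgfc, -0.16 for Cdkn1a. With a term for the deposited table the log2 fold change was 0.011 for Atrx, 0.068 for Tnc, 0.015 for Igfbp3, 0.062 for Itgb1, 0.016 for Egfr, -0.35 for Pdgfc, -0.18 for Cdkn1a. With voom the log2 fold change was -0.027 for Top2a, 0.00181 for Tnc, 0.024 for Itgb1, -2.55 for Six3os1, -0.32 for Pdgfc, -0.14 for Cdkn1a, -0.14 for Sox10. With all 23 libraries the log2 fold change was 0.014 for Itgb1. Without the filter the log2 fold change was -0.000607 for Olig1. With the earlier table's libraries alone the log2 fold change was 0.029 for Tnc, 0.16 for Egfr, -0.26 for Cspg4, 0.23 for Ndn, -0.53 for Nxf3, -0.58 for Pdgfc, -1.21 for Cdkn1a. On leaving out 1 library at a time the log2 fold change ranged from -0.046 to 0.19 for Top2a, -0.38 to 0.27 for Tnc, -0.18 to 0.20 for Olig1, -0.43 to 0.020 for Map2, -0.11 to 0.34 for Notch1, -0.44 to 0.16 for Igfbp3, -0.077 to 0.074 for Itgb1, -0.33 to 0.096 for mt-Co1, -0.36 to 0.93 for Alas2, -9.83 to 0.10 for Xist, -0.50 to 0.48 for Pdgfc, -0.074 to 1.04 for Sox10.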

Other observations

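The 13 mitochondrially encoded genes summed to 8988 and 9486 CPM in the preneoplastic libraries and to 4591, 5724, 11352 and 11127 in T1 to T4, so that T1 and T2, of the earlier table, lay below and T3 and T4 above. mt-Co1, a subunit of cytochrome oxidase, stood at 5966 and 5878 CPM against 2963, 4351, 7912 and 6928. Id3, a target of BMP signalling, stood at 92.8 and 83.1 CPM against 85.7, 106, 291 and 119, and Foxj1, a factor of multiciliated cells, at 8.39 and 11.8 CPM against 21.6, 26, 3.41 and 13.9.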
